A study of Mus musculus with 3 samples.

Results

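The ion channels that turn heat, cold, irritants, acid, ATP and mechanical force into electrical signals were followed in embryonic mouse sensory ganglia. They comprised 39 genes chosen by name: 1 TRPA, 6 TRPC, 8 TRPM and 6 TRPV channel genes, Piezo1 and Piezo2, 4 ASIC genes, 7 P2X genes, 3 Tmem63 genes, Ano1 and Stoml3. All 39 were found among the 41388 Ensembl genes of the count tables. RNA came from dorsal root ganglion (DRG) cells sorted for the Ret-EGFP reporter at 12.5 days post coitum, from ganglia between lower thoracic and first sacral levels. Library D pooled 60 ganglia of 3 embryos, library B 340 ganglia of 17 embryos and library C 300 ganglia of 15 embryos. All pools mixed male and female embryos of different mothers, of strain C57BL/6. Their genotype is labelled Tg(Ret-EGFP)SJ/, a transgene, whereas the submitters' design text speaks of a heterozygous knock-in at Ret, and which account holds was not resolved. They form a single group with no untreated, EGFP-negative or other control, and nothing in the labels says which DRG neuron classes the sort retained.

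TRP channels, P2X receptors, ASICs and Piezo proteins sit in the endings of DRG neurons, where stimulus-opened cation channels bring the ending to threshold. In the adult ganglion they are divided among neuron classes: Trpv1 and Trpa1 mark nociceptors that answer capsaicin and irritants, Trpm8 marks cold-sensing neurons, P2rx3 non-peptidergic nociceptors and Piezo2 touch and position sense. At mid-gestation most of these classes are still being specified.

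Total counts were 20966139 in D, 18072199 in B and 11666241 in C. Transcript levels below are TPM, counts per gene length scaled to the same total in each library, and genes from 1 TPM upwards are called detected. One unit of the deposited RPKM corresponded to 2.72 TPM in D, 2.00 TPM in B and 1.95 TPM in C, so TPM stands higher in D than CPM does for the same gene. All 10 neuron markers, led by Tubb3 and Stmn2, were detected in every library. So were 5 of 7 nociceptor markers, led by Gfra3 and Calcb, and 9 of 9 markers of mechanoreceptors and proprioceptors, led by Gfra2 and Shox2. The background detected in every library was 28.7% of all genes and 51.4% of protein-coding genes. In pooled tissue, fewer cells that express a channel and less channel RNA per cell cannot be told apart.

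A small set of channels carried most of this RNA. In every library 11 of the 39 members were detected, 12 were detected in some libraries and 16 in none. The share detected in every library was 28.2% of members, against a background of 28.7% of all genes in the tables and 51.4% of 20516 protein-coding genes. In single libraries 20 members were detected in D, 14 in B and 15 in C. The limit let in more genes of any kind in D, where Trpc4 at 1.01 TPM ranked 14729 among all genes. In B Trpm3 at 0.74 TPM ranked 14335, and in C Trpc5 at 0.93 TPM ranked 13371. The share of all genes detected was not computed per library, so these counts are a description only. P2rx3 alone held 47.4 ± 9.19% of the summed TPM of all members (SD, n = 3), Trpv2 12.9 ± 0.54% and Tmem63b 11.02 ± 3.64%. The genes are long: the median counted length was 4245 bases, against 2982 bases over protein-coding genes.

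**Figure D1:**
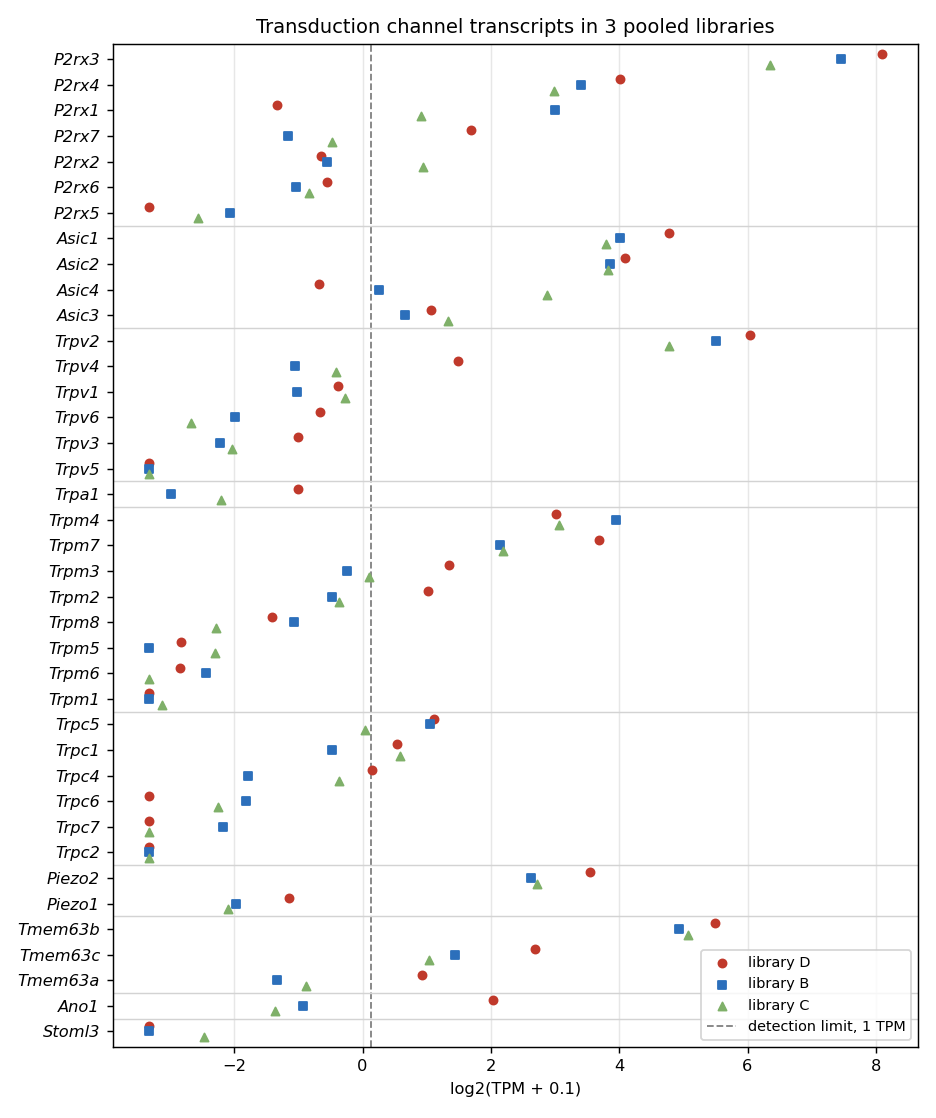
Level of each of the 39 channel genes as log2(TPM + 0.1) on the x axis, with a point for each library (D, B, C) and genes grouped by family from P2X at the top. The dashed line marks 1 TPM; 11 genes lie right of it in every library, led by P2rx3, and 16 lie left of it in every library.

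P2X receptors are ATP-gated cation channels of 3 subunits. P2rx3 (ENSMUSG00000027071, chromosome 2, 84998583 to 85037462, GRCm38), the subunit of nociceptor ATP responses, stood at 273 TPM in D, 176 TPM in B and 81.3 TPM in C. It was the highest member in all 3 libraries, at position 663 in D, 906 in B and 1681 in C among all genes ranked by TPM, and C lay well below the others. P2rx4, a widely expressed ATP receptor, stood at 16.1 TPM in D, 10.5 TPM in B and 7.81 TPM in C, in the same order. The log2 ratio of P2rx3 over P2rx4 was 3.83 ± 0.40 (SD, n = 3) and positive in 3 of 3 libraries.

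P2rx2, which joins P2rx3 in mixed channels, was low at 0.54 TPM in D, 0.58 TPM in B and 1.82 TPM in C, on 8, 10 and 21 counts. P2rx3 exceeded it by a log2 ratio of 7.39 ± 1.75, with 8.73 in D, 8.02 in B and 5.40 in C. P2rx1, a receptor of platelets and smooth muscle, behaved differently, with 0.30 TPM in D, 7.86 TPM in B and 1.78 TPM in C. It had 6 counts in D, 186 in B and 28 in C, so B alone gave most of its reads. P2rx7, known from macrophages and glia, showed another order, with 3.14 TPM in D, 0.35 TPM in B and 0.62 TPM in C. P2rx6, which hardly forms channels by itself, stayed between 0.39 and 0.58 TPM, and P2rx5 between 0 and 0.14 TPM. P2rx3 took 93.0% of the P2X TPM in D, 89.9% in B and 86.6% in C.

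**Figure D2:**
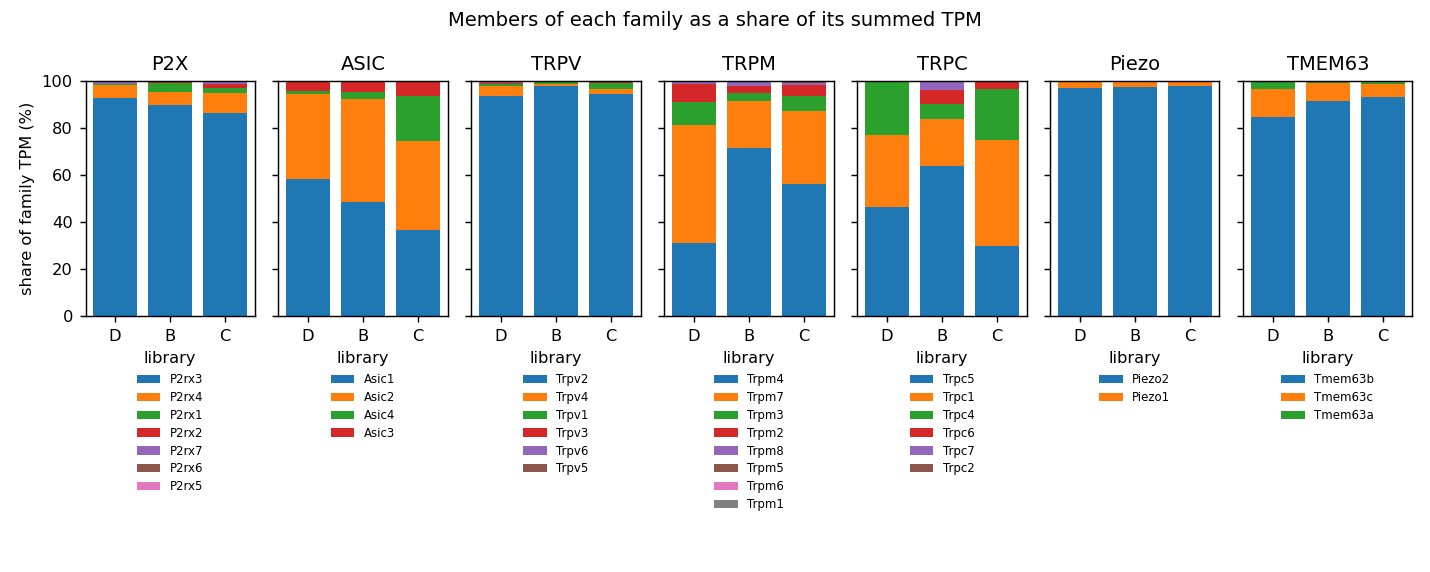
Share of each family's summed TPM (y axis, percent) held by its members, as stacked bars for libraries D, B and C. P2rx3, Trpv2, Piezo2 and Tmem63b held most of their families in every library, while the leading gene of the ASIC, TRPM and TRPC families changed between libraries.

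ASICs are proton-gated sodium channels that answer tissue acid, and all 4 genes were detected in at least 2 libraries. Asic1 (chromosome 15, 99670718 to 99701127) stood at 27.2 TPM in D, 16.03 TPM in B and 13.8 TPM in C. Asic2 varied little, at 16.9 TPM in D, 14.5 TPM in B and 14.1 TPM in C. These subunits did not differ beyond their spread: the log2 ratio of Asic1 over Asic2 was 0.68 in D, 0.15 in B and -0.03 in C, with a mean of 0.27 ± 0.37. Asic3, the subunit best known from adult nociceptors and muscle afferents, was much lower at 2.00 TPM in D, 1.48 TPM in B and 2.40 TPM in C. Asic1 exceeded it in 3 of 3 libraries, by 3.17 ± 0.63 on the log2 scale. Asic4, whose product does not open to protons by itself, stood at 0.52 TPM in D, 1.098 TPM in B and 7.22 TPM in C. Its counts were 11 in D, 27 in B and 118 in C, so C supplied most of them although it was the shallowest library. Mafa, a mechanoreceptor transcription factor gene picked after its values were seen, had 10 counts in D, 12 in B and 100 in C. By TPM, however, 5 of the 9 mechanoreceptor and proprioceptor markers were highest in D, Gfra2 and Shox2 among them.

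TRPV channels include the capsaicin receptor, yet Trpv1 was not the family's main transcript at this stage. Trpv2 (chromosome 11, 62574486 to 62600515), a calcium-permeable channel of sensory neurons and immune cells, stood at 65.6 TPM in D, 45.6 TPM in B and 27.2 TPM in C. Trpv1 itself reached 0.67 TPM in D, 0.39 TPM in B and 0.72 TPM in C, on 19, 13 and 16 counts. The exact Poisson interval of Trpv1, which covers counting error only, ran from 0.40 to 1.05 TPM in D, from 0.21 to 0.67 TPM in B and from 0.41 to 1.18 TPM in C. Trpv2 exceeded Trpv1 in 3 of 3 libraries, by 6.00 ± 0.83 on the log2 scale, and held 95.4 ± 2.10% of the TRPV TPM. Trpv4, an osmotically and mechanically responsive channel, was detected in D alone, with 2.71 TPM in D, 0.38 TPM in B and 0.65 TPM in C. Trpv3, the warmth channel of keratinocytes, stayed between 0.11 and 0.40 TPM and the epithelial calcium channel Trpv6 between 0.057 and 0.53 TPM. Trpv5, its close relative, had no count; the 3 counts that a count of 0 allows correspond to 0.143 CPM in D, 0.166 CPM in B and 0.257 CPM in C.

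The irritant and cold receptors were likewise under the limit. Trpa1, opened by mustard oil, had 13 counts in D, 1 in B and 3 in C, which is 0.40 TPM in D, 0.026 TPM in B and 0.12 TPM in C. Trpm8, opened by menthol and cold, stood at 0.27 TPM in D, 0.37 TPM in B and 0.11 TPM in C, on 10, 16 and 3 counts. Their counting intervals reached no higher than 0.68 TPM for Trpa1, the upper bound in D, and 0.61 TPM for Trpm8, the upper bound in B. Trpv1 exceeded Trpa1 by 1.51 ± 0.76 on the log2 scale and Trpm8 by 1.03 ± 0.98, positive in 3 of 3 libraries for each. In B the ratio of Trpv1 over Trpm8 was only 0.050, and on the CPM scale it was -0.27 there. Of the nociceptor markers, Scn10a, a sodium channel gene, stood at 2.24 TPM in D, 1.47 TPM in B and 2.89 TPM in C. Calcb, a CGRP gene, stood at 150 TPM in D, 153 TPM in B and 89.8 TPM in C.

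The TRPM family was led by channels with general roles in ion balance. Trpm4, a calcium-activated channel for monovalent cations, stood at 7.95 TPM in D, 15.3 TPM in B and 8.21 TPM in C. Trpm7, a channel fused to a kinase that carries magnesium, stood at 12.8 TPM in D, 4.30 TPM in B and 4.48 TPM in C. Their order turned between libraries: the log2 ratio of Trpm7 over Trpm4 was 0.68 in D, -1.81 in B and -0.86 in C. On the CPM scale, which leaves out length, its mean was 0.74 instead of -0.66. Trpm3, a heat and steroid channel, reached 2.45 TPM in D, 0.74 TPM in B and 0.97 TPM in C. Trpm2, opened by ADP-ribose under oxidative stress, reached 1.93 TPM in D, 0.62 TPM in B and 0.68 TPM in C. Both were detected in D only. Trpm5, Trpm6 and Trpm1, known from taste cells, epithelia and retina, stayed between 0 and 0.10 TPM.

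TRPC channels, which open downstream of phospholipase C, were low throughout, with summed levels of 4.44 TPM in D, 3.08 TPM in B and 3.11 TPM in C. Trpc5, a growth cone channel, stood at 2.07 TPM in D, 1.97 TPM in B and 0.93 TPM in C. Trpc1, a subunit of mixed channels, stood at 1.36 TPM in D, 0.62 TPM in B and 1.39 TPM in C, and Trpc4, another subunit, at 1.01 TPM in D, 0.19 TPM in B and 0.67 TPM in C. The log2 ratio of Trpc1 over Trpc5 had no steady sign, with -0.57 in D, -1.52 in B and 0.53 in C. Trpc6 and Trpc7, opened by diacylglycerol, stayed between 0 and 0.18 TPM. Trpc2, the vomeronasal channel, was listed at 0. All 2874 of its counted bases are shared with Xndc1 and Xntrpc, to which reads could have been given instead.

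Among mechanically gated channels Piezo2 far exceeded Piezo1. Piezo2 (chromosome 18, 63010213 to 63387183), the channel of touch and proprioception, stood at 11.5 TPM in D, 6.08 TPM in B and 6.47 TPM in C. Piezo1, the channel of vessels and red cells, stood at 0.35 TPM in D, 0.16 TPM in B and 0.13 TPM in C, on 27, 14 and 8 counts. This was the steadiest ratio among the 12 pairs, at 4.68 in D, 4.59 in B and 4.81 in C on the log2 scale, with a mean of 4.69 ± 0.11. Piezo1 shares 24.6% of its counted length with Ctu2, and since the strand setting of the counting is not known, those reads cannot be assigned with certainty.

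Tmem63b (chromosome 17, 45660171 to 45686905), an osmotically and mechanically activated channel, stood at 45.1 TPM in D, 30.6 TPM in B and 33.6 TPM in C. Tmem63c, a relative, stood at 6.35 TPM in D, 2.60 TPM in B and 1.96 TPM in C, and Tmem63a, a lysosomal and glial relative, at 1.79 TPM in D, 0.30 TPM in B and 0.45 TPM in C. Tmem63b exceeded Tmem63a in 3 of 3 libraries by 5.60 ± 0.90 on the log2 scale. Ano1, the calcium-activated chloride channel of heat-sensing neurons, reached 3.99 TPM in D, 0.43 TPM in B and 0.29 TPM in C, so it was detected in D alone. Stoml3, a stomatin-like protein that tunes Piezo channels in touch neurons, had 0 counts in D, 0 in B and 1 in C.

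For the 12 pairs, 9 ratios were positive in 3 of 3 libraries. Each of these gave an exact two-sided sign-flip p = 0.25 (0.33 adjusted over the 12 pairs by Benjamini-Hochberg), the smallest that 3 libraries allow, so no ratio could pass 0.05. Asic1 over Asic2, Trpc1 over Trpc5 and Trpm7 over Trpm4 gave an exact p = 0.50. In the order of mean TPM the detected members ran P2rx3, Trpv2, Tmem63b, Asic1, Asic2, P2rx4, Trpm4, Piezo2, Trpm7, Tmem63c and Asic3, from 177 ± 95.8 TPM for P2rx3 to 1.96 ± 0.46 TPM for Asic3 (SD, n = 3). Of the 10 neighbouring pairs in that order, 4 kept it in every library with a mean log2 ratio above its SD: P2rx3 over Trpv2, Tmem63b over Asic1, Asic2 over P2rx4 and Trpm7 over Tmem63c. The other 6 pairs, Trpv2 and Tmem63b among them, did not differ beyond their spread.

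The sequence before the start of transcription was then compared with these levels. RefSeq windows (GRCm38.p6) were available for 32 of the 39 members; P2rx3, P2rx2, P2rx5, Trpa1, Piezo2, Asic4 and Trpm4 were without one. In the 250 bases before the start, the letters CG, which read the same on both strands, were counted and averaged over a gene's windows. Members detected in every library had a median of 8.25 CG (8 genes), those detected in some libraries 12.5 (10 genes) and those under 1 TPM throughout 2.75 (14 genes). Over all 27025 genes with a window the median was 6. At least 10 CG were found for 2 of the 14 undetected members, Piezo1 and Trpc6, for 4 of the 8 detected in every library and for 7 of the 10 detected in some. The background was 38.5% of all genes and 50.9% of protein-coding genes. Some windows, those of Asic1 and Tmem63b among them, lie inside the counted gene, where the annotations differ. The windows of Trpm7, Trpv2 and Trpv5 are shown because they join a CG-rich start at a moderate level, a CG-poor start at a high level and a CG-poor start with no count. Capitals mark each CG: 26 in Trpm7 (chr2:126876262-126876511, minus strand), 2 in Trpv2 (chr11:62574236-62574485, plus strand, the first of its 3 windows) and 1 in Trpv5 (chr6:41680724-41680973, minus strand).
Trpm7: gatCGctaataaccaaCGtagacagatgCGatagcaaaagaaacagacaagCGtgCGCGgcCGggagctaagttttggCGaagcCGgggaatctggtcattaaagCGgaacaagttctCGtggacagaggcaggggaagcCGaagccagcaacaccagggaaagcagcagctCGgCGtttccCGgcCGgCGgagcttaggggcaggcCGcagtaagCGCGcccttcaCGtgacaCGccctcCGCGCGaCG
Trpv2: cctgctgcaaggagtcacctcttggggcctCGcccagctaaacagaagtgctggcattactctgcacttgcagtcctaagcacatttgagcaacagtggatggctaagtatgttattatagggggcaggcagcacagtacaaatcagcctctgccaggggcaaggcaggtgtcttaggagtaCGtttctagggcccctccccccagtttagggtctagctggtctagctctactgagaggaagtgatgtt
Trpv5: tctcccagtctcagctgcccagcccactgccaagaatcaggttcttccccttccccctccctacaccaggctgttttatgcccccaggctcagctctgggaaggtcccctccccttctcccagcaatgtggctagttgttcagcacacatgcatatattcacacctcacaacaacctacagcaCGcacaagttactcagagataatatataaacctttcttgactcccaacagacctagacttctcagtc
Trpv2 and Asic1 thus stood among the highest members with 3 and 5 CG on average. A count of letters in one window is a description and says nothing of the factors that act there.

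**Figure D3:**
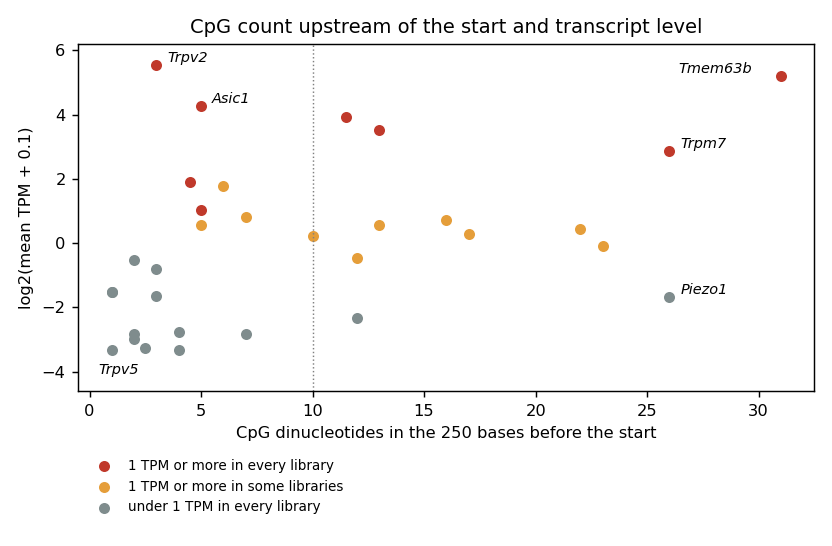
Mean number of CpG dinucleotides in the 250 bases before the RefSeq start (x axis) against log2(mean TPM + 0.1) (y axis) for the 32 members with a window, coloured by detection. Most of the 14 undetected genes lie left of the dotted line at 10, while Piezo1 lies at 26 and Trpv2 at 3.

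Pools of different size were then compared, with library D, the smallest, on one side and B and C on the other. With edgeR's quasi-likelihood test 0 of the 30 members tested passed at adjusted p 0.05, against a background of 0.0% of 15727 genes. An unadjusted p under 0.05 was found for 4 members, and for 19.4% of all genes; DESeq2 called 2 members and 4.53% of genes. With no filter on low counts edgeR called 3 of 37 members, against 6.51% of 23553 genes. Log2 ratios above 1 were found for 6 of the 30 (20%), close to the background of 20.8%, and below -1 for 4 (13.3%), against 22.1%. The median log2 ratio was 0.17 over the members and -0.02 over all genes tested. The 9 members with few counts were not tested, and a low member enters the test more readily when 1 library is high, so these counts are a description only.

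P2rx1 was the lowest of them, with a log2 ratio of -4.67 ± 1.24 (approximate SE; edgeR adjusted p = 0.20). Asic4 followed with -3.69 ± 1.39 (edgeR adjusted p = 0.24). DESeq2, which called these 2 genes, gave them adjusted p = 0.0046 and 0.035. Their B and C values differed widely, as given above. Trpm4 had a ratio of -1.26 ± 0.59 and P2rx2 of -1.82 ± 1.28. On the other side Ano1 had 2.76 ± 0.69 (edgeR adjusted p = 0.19), P2rx7 2.00 ± 0.74, Trpa1 1.82 ± 1.51, Trpv4 1.69 ± 0.80, Tmem63a 1.57 ± 0.84 and Trpv6 1.55 ± 1.41. The most abundant channels lay near 0, with 0.40 ± 0.53 for P2rx3, 0.16 ± 0.49 for Trpv2, -0.21 ± 0.45 for Tmem63b, 0.17 ± 0.47 for Asic1 and 0.17 ± 0.46 for Piezo2. For these channels the ratios scaled on counts were smaller than the gaps in TPM.

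Libraries B and C were also each set against the other libraries. In C alone edgeR called 0 members, against a background of 0.782% of genes, and DESeq2 called 0 members, against 1.13% of genes. An unadjusted edgeR p under 0.05 was found for 1 of the 30 members, against 6.91% of genes. That was Asic4, with a log2 ratio of 3.44 ± 1.02 (edgeR adjusted p = 0.077). In B alone edgeR called 0 members, against 0.0% of genes, and DESeq2 0 members, against 0.00636% of genes. There P2rx1 had the only unadjusted edgeR p under 0.05 among the 30 members, against 1.11% of genes, with a log2 ratio of 2.96 ± 1.19 (edgeR adjusted p = 1.00).

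**Figure D4:**
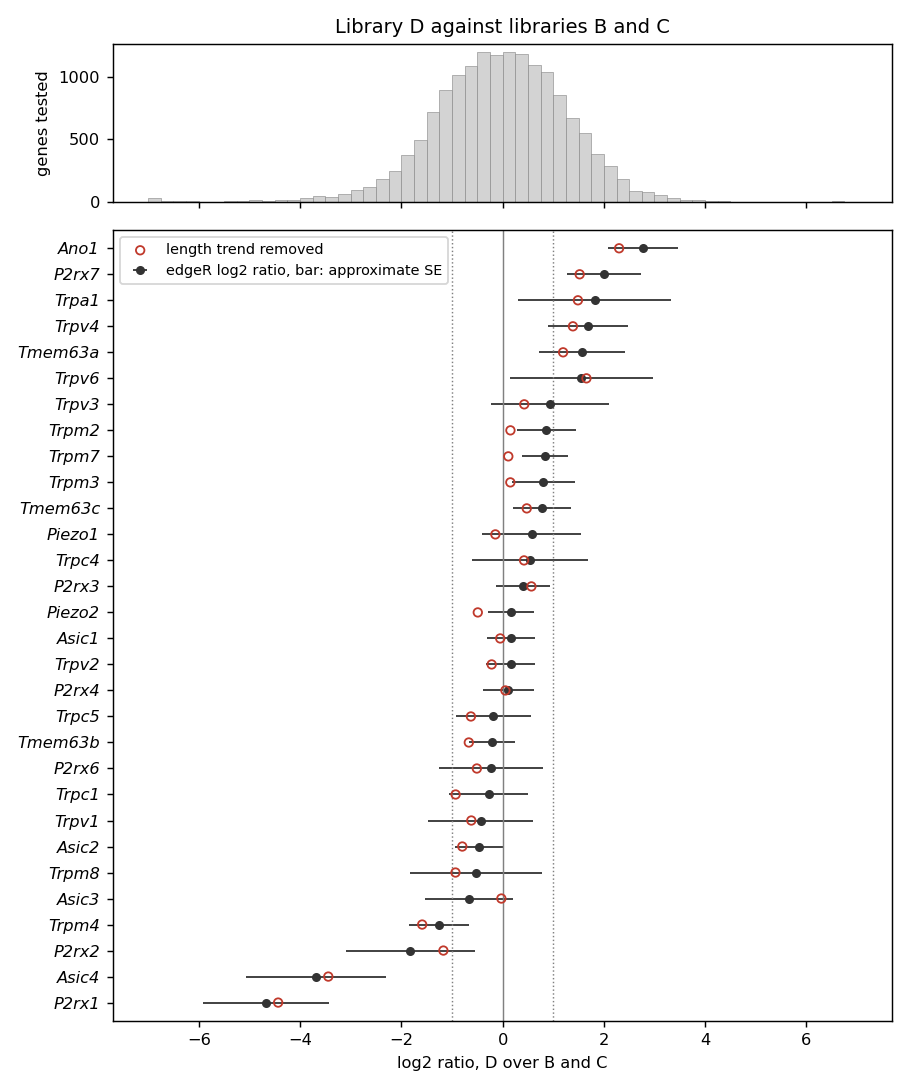
Upper panel: number of genes (y axis) by log2 ratio of D over B and C for the 15727 genes tested, with values beyond 7 placed in the end bars. Lower panel: the same ratio for the 30 members tested, filled points with bars of 1 approximate SE and open circles after removal of the length trend; Ano1 is highest at 2.76, P2rx1 lowest at -4.67, and P2rx3 and Piezo2 lie near 0.

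Marker lists of neurons and of other cells also differed between the libraries. Neuron markers summed to 20887 TPM in D, 32187 TPM in B and 24746 TPM in C. Tubb3 and Stmn2 made up most of these sums. By TPM 4 of the 10, Elavl3, Elavl4, Snap25 and Pou4f1, were highest in D, with Pou4f1 at 695 TPM in D, 217 TPM in B and 118 TPM in C. On the edgeR scale 1 of the 10, Pou4f1 at 1.36, had a positive log2 ratio of D over B and C, and the median was -0.64. Glia markers, all 8 detected in every library, summed to 4775 TPM in D, 3052 TPM in B and 1514 TPM in C, led by Fabp7 and Ednrb. Ednrb stood at 2138 TPM in D, 375 TPM in B and 254 TPM in C, while Fabp7 was highest in B, at 2017 TPM in D, 2487 TPM in B and 1088 TPM in C. Melanoblast markers summed to 39.5 TPM in D, 6.71 TPM in B and 6.58 TPM in C, led by Dct and Kit; 1 of 7 was detected in every library and Mlana had no count. Mesenchyme markers summed to 97.9 TPM in D, 31.8 TPM in B and 25.2 TPM in C, led by Col1a2 and Col3a1, with 5 of 8 detected. Those 2 collagens made up most of it, with Col1a2 at 53.0 TPM in D, 11.2 TPM in B and 8.42 TPM in C; 4 of the 8 genes, Col1a1, Dcn, Twist1 and Prrx1, were highest in B. Skeletal muscle markers, led by Actc1 and Myf5, summed to 15.3 TPM in D, 11.2 TPM in B and 0.41 TPM in C, with 0 of 6 detected in every library. Actc1 was highest in B, at 7.22 TPM in D, 7.81 TPM in B and 0.31 TPM in C. Myf5 was highest in D, at 4.24 TPM in D, 0.16 TPM in B and 0 TPM in C. The glia, melanoblast, mesenchyme and muscle sums stood highest in D, as did Ano1, P2rx7, Trpv4 and Tmem63a. So did the nociceptor sum, at 529 TPM in D, 386 TPM in B and 291 TPM in C, though only 2 of its 7 genes were highest there. Gfra3 was its largest part, at 343 TPM in D, 188 TPM in B and 158 TPM in C. The mechanoreceptor and proprioceptor sum was also highest in D, at 586 TPM in D, 312 TPM in B and 314 TPM in C. P2rx3, Trpv2, Asic1 and Piezo2 had their highest TPM in D as well, and so did Trpm7, Trpm2, Trpm3 and Tmem63c, among others. On the edgeR scale the median log2 ratio of D over B and C was 0.81 for the glia list, 1.78 for the 4 melanoblast genes tested, -0.13 for the mesenchyme list and 0.84 for the 5 muscle genes tested. It was -0.38 for the nociceptor list and 0.02 for the mechanoreceptor and proprioceptor list. Low genes enter this fit more readily when 1 library is high, so the medians of marker lists are a description only. Trpm1, a melanocyte as well as retinal gene, had 0 counts in D, 0 in B and 1 in C, too few to compare the libraries.

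The sums of 4 other lists stood highest in B, as did the neuron sum given above, P2rx1 and Trpm4. Sympathetic and chromaffin markers summed to 118 TPM in D, 337 TPM in B and 249 TPM in C, led by Chga and Dbh, with 5 of 7 detected in every library. Chga was highest in C, at 51.5 TPM in D, 118 TPM in B and 172 TPM in C, and the rest of that list in B. Erythroid markers summed to 388 TPM in D, 2672 TPM in B and 1340 TPM in C, led by Hbb-y and Hba-x, with 3 of 5 measured detected. Macrophage markers summed to 37.5 TPM in D, 87.3 TPM in B and 58.4 TPM in C, led by Fcer1g and C1qb, with 5 of 9 detected. Fcer1g and C1qb made up most of these macrophage sums. Within that list 4 of the 9 genes, Csf1r, Cx3cr1, Adgre1 and Ptprc, were highest in D instead, and C1qa and C1qc in C. Csf1r stood at 2.39 TPM in D, 0.43 TPM in B and 0.31 TPM in C. Endothelial markers summed to 4.76 TPM in D, 8.71 TPM in B and 3.92 TPM in C, led by Pecam1 and Cldn5, with 0 of 7 detected throughout. Pecam1 and Tek were highest in D, Cldn5 in C and the rest of that list in B, with Emcn at 2.42 TPM there. Median log2 ratios of D over B and C were -2.16 for sympathetic, -2.97 for erythroid, -0.99 for macrophage and -2.16 for endothelial markers. The part of these cells in the channel values was not tested.

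Channels depend on partner proteins, and most of those listed were present. Of 19 TRP and Piezo partners 16 were detected in every library, where 28.7% of all genes and 51.4% of protein-coding genes were. Cdk5, a kinase that acts on Trpv1, stood at 157 TPM in D, 239 TPM in B and 289 TPM in C. Pirt, a membrane protein that binds Trpv1 and Trpm8, stood at 153 TPM in D, 98.2 TPM in B and 92.1 TPM in C, far above either channel. Cdk5r1, the Cdk5 activator, stood at 34.3 TPM in D, 23.2 TPM in B and 31.3 TPM in C. All 4 ASIC and stomatin partners were detected, led by Stoml2 (85.8 TPM in D, 93.3 TPM in B, 99.0 TPM in C), Stoml1 (53.5 TPM in D, 52.3 TPM in B, 92.2 TPM in C) and Stom (50.7 TPM in D, 21.1 TPM in B, 7.30 TPM in C).

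Other genes of nucleotide signalling were measured beside the P2X receptors. Of 7 P2Y receptors, which couple ATP and other nucleotides to G proteins, 1 was detected in every library. That was P2ry6, with 1.87 TPM in D, 3.60 TPM in B and 2.58 TPM in C; P2ry12 reached 5.18 TPM in D, 1.12 TPM in B and 0.35 TPM in C, and P2ry14 stayed between 0.19 and 0.87 TPM. Of 12 genes of ATP release and breakdown 5 were detected in every library. Over both lists the share lay near that of all genes, 28.7%, and below that of protein-coding genes, 51.4%. Panx1, which forms ATP-releasing channels, stood at 17.5 TPM in D, 11.1 TPM in B and 23.0 TPM in C. Gjc3, a glial connexin gene, stood at 16.9 TPM in D, 3.12 TPM in B and 5.46 TPM in C, and Ada, which removes adenosine, at 7.19 TPM in D, 7.14 TPM in B and 4.66 TPM in C. Slc17a9, the vesicular ATP transporter, stayed between 0.041 and 0.069 TPM.

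Of 14 genes listed as other mechanically or thermally gated channels, some of them only linked to such responses, 6 were detected in every library. Tmem120a, a membrane protein linked to mechanical responses, led with 93.1 TPM in D, 126 TPM in B and 183 TPM in C. Mcoln1, a lysosomal TRP channel, stood at 6.73 TPM in D, 4.86 TPM in B and 21.1 TPM in C. Kcnk10, a heat- and stretch-sensitive potassium channel, stood at 10.8 TPM in D, 6.92 TPM in B and 4.48 TPM in C. Of 9 sensitizing receptors, whose signals lower channel thresholds, 0 were detected in every library. For both lists the background was 28.7% of all genes and 51.4% of protein-coding genes. Ednra reached 24.6 TPM in D, 1.58 TPM in B and 0.85 TPM in C, Bdkrb2 6.41 TPM in D, 0.79 TPM in B and 0.99 TPM in C, and Ptger4 1.19 TPM in D, 0.42 TPM in B and 0.98 TPM in C. In D against B and C, edgeR passed no gene of these lists in either direction. An unadjusted p under 0.05 was found for 3 of 18 tested TRP and Piezo partners, 1 of 4 ASIC and stomatin partners, 0 of 6 P2Y receptors, 1 of 11 genes of ATP release and breakdown, 3 of 9 other gated channels and 3 of 5 sensitizing receptors, beside 19.4% of all genes tested. Their median log2 ratios were -0.08, -1.01, -0.45, -0.28, 0.45 and 2.14 in that order, against -0.02 over all genes tested. As with the members, a low gene enters this test more readily when 1 library is high. Bdkrb1, a sensitizing receptor gene, had 17 counts in D, 0 in B and 0 in C. The shares and medians of these lists are thus a description only. DESeq2 called 1 gene of these lists, Ednra, with an edgeR log2 ratio of 3.64 ± 0.55 and a DESeq2 adjusted p = 2.2e-04.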

How the data were processed

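Each library was a pool of sorted cells deposited as a table of raw read counts, CPM and RPKM per Ensembl gene. Per the submitters' processing notes, Subread, featureCounts 1.4.5 and GRCm38.p2 were used; the sources used here do not give the annotation release, strand setting or filters. Per the file headers, the deposited CPM is the count scaled by the library's total, and the RPKM is that CPM per kilobase; both were recomputed from the counts, which were used. TPM was computed from counts and deposited lengths over all 41388 genes; symbols matched 40254.

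Log2 ratios within a library used a pseudocount of 0.1 TPM and an exact sign-flip test. Lone-library ratios came from the quasi-likelihood test of edgeR 4.0.16 with TMM scaling, after filterByExpr, with a threshold of 0.05 on p-values adjusted by Benjamini-Hochberg over all genes. Such a fit of D leaves 1 residual degree of freedom and takes D to vary as B and C do. B and C were also fitted alone. Alternatives used DESeq2 1.42.0, its size factors, no filter, a length trend from mgcv 1.9.3, other limits and scales, and each library left out. The SE is approximate, from the ratio and its F statistic. DESeq2 gave no adjusted p for 14 members, which stay uncounted. Libraries are separate pools per the labels, and no pair matched within counting error (chi-square per degree of freedom 95.1 to 231). P-values measure the spread between these pools, which may be technical.

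The members, lists and pairs were chosen with earlier results of these data known. Every member is accounted for: values per library are given for those detected in at least 1 library and for Trpv1, Trpa1, Trpm8, Piezo1 and Stoml3, and ranges for the rest. The 3 highest genes of each pathway list and the 2 highest of each marker list used are named. Scn10a, Mafa, Mlana, Csf1r, Cx3cr1, Adgre1, Ptprc, C1qa, C1qc, Slc17a9 and Bdkrb1 were chosen after their values were seen. So were Elavl3, Elavl4, Snap25, Pou4f1, Col1a1, Dcn, Twist1, Prrx1, Tek and Emcn. Total counts of 11666241 to 20966139 allow up to 3 counts for a count of 0. Intervals (exact, 95%) and such limits cover counting error only, because amplified reads carried no molecular identifiers. For 11 members part of the exon sequence also lies in other genes, as for P2rx6 (13.9% of its length), Trpm8 (8.20%) and Tmem63b (7.73%), so their reads are less certain.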

Additional observations from a re-analysis of the deposited data

How the results depend on the processing

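Of 293 alternatives, 258 were labelled the same. Ratios and shares had to move by less than their SD, and D ratios with a library left out by less than their SE. Other D ratios had to keep their direction and call, and a missing DESeq2 adjusted p was taken as not called, as for Ano1. Counts of members could shift by a set factor, so 15 against 11 detected was labelled the same. These rules favour that label. Of the 39 members 17 were detected at 0.5 TPM (43.6%, against 32.5% of all genes), 21 at 10 counts (53.8% against 31.3%), 15 at 1 CPM (38.5% against 29.5%) and 8 at 5 TPM (20.5% against 17.3%). The protein-coding background was computed at 1 TPM only, where it was 51.4% against 28.2% of members. Limits on counts or CPM also let in long genes, as the members are, more readily. With 1 library left out 12 to 13 were detected. With a pseudocount of 1 TPM, log2 ratios came to 2.85 for Piezo2 over Piezo1, 4.81 for Trpv2 over Trpv1, 0.44 for Trpv1 over Trpa1 and 4.41 for Tmem63b over Tmem63a, since a larger pseudocount shrinks ratios of low genes. With CPM, which leaves out length, they came to 5.70 for Piezo2 over Piezo1, 4.11 for Asic1 over Asic3, 0.11 for Trpc1 over Trpc5 and 0.74 for Trpm7 over Trpm4, the last 2 with the sign turned, and Piezo2 held 98.3% of the Piezo sum.

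In D against B and C, 3 of 37 members were called with no filter (Ano1, P2rx1 and Asic4; 1534 of 23553 genes) and 2 with DESeq2 (P2rx1 and Asic4); the cause was not tested. No member was called in B alone or in C alone with edgeR, though 1 had an unadjusted p under 0.05 in each fit (P2rx1 in B, Asic4 in C). Asic4 passed in C with the length trend removed (3.29 ± 0.86, edgeR adjusted p = 0.029, against 0.077 without). DESeq2 called 0 members in either. Among 180 alternatives of the D ratios, 168 kept their direction. With the length trend removed Piezo1 (-0.14), Trpv2 (-0.22), Asic1 (-0.047) and Piezo2 (-0.49) changed sign. Without library B the ratio turned for Trpm8 (0.61, against -1.12 without C), Trpc5 (0.40, against -0.61 without C) and Trpc4 (-0.16, against 1.70 without C). Without library C it turned for P2rx3 (-0.050, against 0.998 without B), P2rx4 (-0.072, against 0.29 without B), Trpc1 (0.44, against -0.78 without B), Trpv2 (-0.16, against 0.52 without B) and Trpv1 (0.089, against -0.86 without B). These are values of 1 library against 1, with no test, so counts of calls could not be had. The number of members with a log2 ratio above 1 in D, an alternative added after seeing the data, was 5 without B, 9 without C and 6 under every other setting; with the length trend removed the background was 16.9% and the medians -0.04 over members and -0.07 over all genes. No paired analysis was possible because the libraries form 1 group. Members with under 30 counts, among them Trpv1, Trpa1 and Trpm8, are limited by depth.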
